A study of Populus ussuriensis with 12 samples.

Results

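The drought response of poplar leaves that overexpress the microRNA Pu-miR172d was measured by RNA sequencing, as OE drought against OE watered leaves. Its members are the genes with at least 1 FPKM (a fragment count that the authors scaled for gene length and library size) in at least 3 of the 6 OE libraries, which were 23651 of the 35747 genes of the deposited table. Of these, 17244 reached 1 FPKM in all 6 libraries. A further 2082 passed through the watered libraries alone and 1010 through the drought libraries alone, so that these genes had to differ and lend no weight of their own to the counts below. The remaining 3315 members reached 1 FPKM in other combinations of libraries. The 12096 genes below this level are left aside.

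All plants were Populus ussuriensis, a poplar of north-east Asia. OE watered and OE drought leaves (libraries 1 to 3 and 4 to 6) carried the Pu-miR172d transgene, and watered and drought leaves of wild type (WT) plants, with the same numbers, served for comparison. Plants were 4 weeks in vitro, were then moved to autoclaved soil in 300 ml pots in a greenhouse at 25 °C under 16 h of light a day, and gave their leaves 7 and 8, counted from the tip. The labels give 70 days as the plant age in one place and as the time in pots in another. Drought was 4 days of withheld water, and the study's subject is the part of this microRNA in stomatal differentiation under drought. The promoter of the transgene, the number of independent lines and whether a library was 1 plant or a pool are stated in no label or header used here. p-values therefore measure the spread between these libraries, which may be technical.

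As background, a leaf that loses water makes abscisic acid (ABA), closes its stomata and shifts from growth and carbon fixation towards protective sugars, hydrophilic proteins and, in prolonged drought, senescence. miR172 is a microRNA of land plants that represses transcription factors of the APETALA 2 (AP2) family, known for their part in the change from juvenile to adult growth and in flowering. The level of Pu-miR172d itself was not analysed here, since the table lists messenger RNAs.

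The OE watered libraries held 9793188 to 10710916 fragments and the OE drought libraries 11602784 to 12131416, totals that follow from the smallest steps between low FPKM values. Watered and drought libraries lay apart on the first principal component, which held 89.9% of the variance. OE drought libraries 4 and 6 differed by a chi-square of 3.90 per gene, where 1 is sampling noise, while the other pairs within the OE groups differed by 19.1 to 45.4. Libraries 4 and 6 thus carry less independent spread than other replicates, and library 5 stood apart from both. The 100 most abundant genes held 24.9% to 29.3% of the summed FPKM in watered and 18.9% to 22.5% in drought libraries. Mesophyll transcripts for Rubisco small chains and antenna proteins were among the most abundant in the watered leaves. Of 12 genes of floral organs or root endodermis, which leaves should lack, 3 were members, led by DEFICIENS (Potri.007G017000, a petal and stamen factor) at 11.5, 19.9 and 17.3 FPKM in the watered and 3.9, 3.5 and 4.83 FPKM in the drought libraries. The kit does not mark strand, so overlapping and antisense genes cannot be told apart.

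Drought changed most of the leaf transcriptome of OE plants. By limma on log2(FPKM + 1) with a Benjamini-Hochberg adjusted p under 0.05, 6919 members rose and 8100 fell, and 8632 passed in neither direction. These are 29.3% and 34.2% of the members, beside 27.8% higher and 35.0% lower among all 25373 genes tested. The median change over all members was -0.09, and that of called members was 1.35 in absolute value. All changes below are differences of log2(FPKM + 1), a scale that understates the change of weakly expressed genes. Scaling the libraries by the median of ratios moved the median to 0.02 and the split to 7854 higher and 7690 lower, so shifts of a list by about 0.1 carry no direction. In whole leaves, fewer cells of a type and less RNA per cell cannot be told apart. OE groups did not overlap in 16687 members (70.6%), beside 70.0% of all 25373 genes tested. In 3092 of those members the filter fixed this, since they reached 1 FPKM in all libraries of 1 group and in none of the other, and outside them the groups did not overlap in 13595 of 20559 members (66.1%).

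A change of at least 1 log2 unit was seen in 4287 risen and 5760 fallen members, of at least 4 units in 388 and 461, and of at least 6 units in 69 and 66. The strongest transcripts fell most often. Of the 42 members with a mean above 1000 FPKM over the 6 libraries, the median change was -2.28, with 11 risen and 22 fallen. Of the 6450 members between 10 and 30 FPKM, the median change was 0.06, with 2283 risen and 2005 fallen. Among members that fell, 5767 had their lowest value in drought library 5, and among members that rose, 3636 had their highest value there. As deposited, the median member stood at 5.81 FPKM in drought library 5, against 7.23 and 7.39 FPKM in drought libraries 4 and 6. The part of this lower level in the lowest values of library 5, here and below, was not tested.

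**Figure D1:**
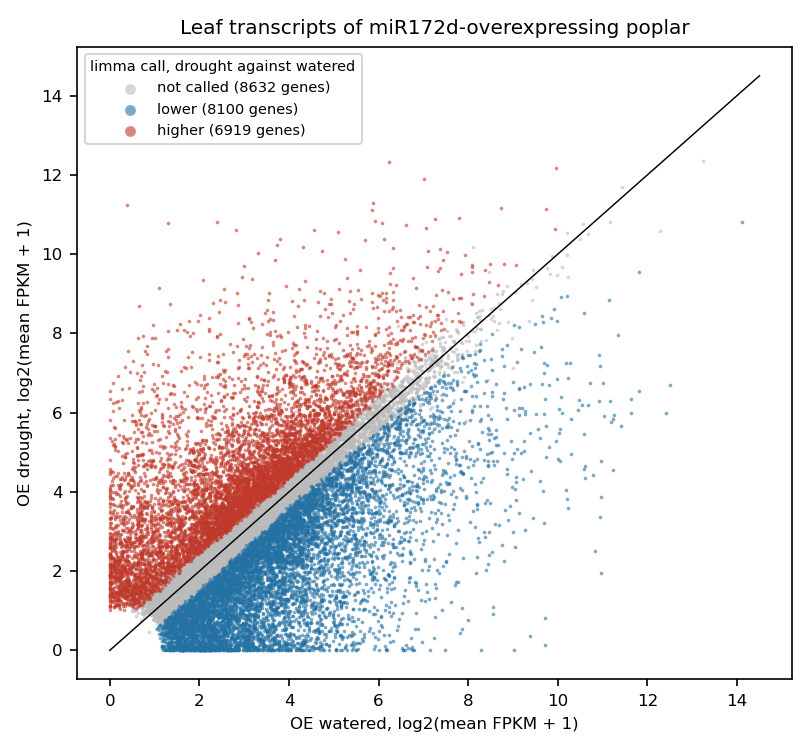
Mean level of each of the 23651 members in 3 OE watered libraries (horizontal axis) and 3 OE drought libraries (vertical axis), as log2(mean FPKM + 1), coloured by the limma call. The 6919 risen genes lie above the line of equal levels and the 8100 fallen genes below it, with most of the strongest watered transcripts among the fallen.

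The largest rise was that of a galactinol synthase 1 gene (Potri.008G101000, chromosome 8, 6360376 to 6362188, minus strand in the authors' table, whose genome build is not given). Galactinol synthase makes the galactosyl donor for raffinose sugars, which protect cells that lose water. It stood at 0, 0.864 and 0.0787 FPKM in the watered and 2363, 2735 and 2143 FPKM in the drought libraries, with less than 1 FPKM in each watered library (log2 change 10.89, SE 0.51, adjusted p = 2.9e-08). ACC oxidase 1 (Potri.002G224100), which releases ethylene, stood at 0.619, 1.95 and 1.81 FPKM in the watered and 1559, 2256 and 1467 FPKM in the drought libraries (log2 change 9.51, SE 0.52, adjusted p = 7.6e-08). Berberine bridge enzyme-like 13 (Potri.006G128900), of a family of flavin oxidases, stood at 1.07, 10.8 and 0.778 FPKM in the watered and 1684, 2168 and 1495 FPKM in the drought libraries (log2 change 8.97, SE 0.62, adjusted p = 3.6e-07). In both genes the 3 drought libraries lay far above the watered ones, and watered library 2 held the highest watered value. ACC synthase 1 (Potri.002G163700), which makes the precursor of ethylene, went from 0.155, 1.53 and 0 FPKM to 342, 632 and 262 FPKM (log2 change 8.07, SE 0.40, adjusted p = 4.3e-08). Glucose-6-phosphate/phosphate translocator 2 (Potri.004G019900), which imports glucose phosphate into plastids, went from 4.01, 6.35 and 7.62 FPKM to 1493, 1769 and 1388 FPKM (log2 change 7.82, SE 0.35, adjusted p = 2.8e-08). Others among the largest rises were basic 7S globulin (Potri.002G054900, 8.24), a cupredoxin (Potri.006G067300, 7.57), glucose and ribitol dehydrogenase (Potri.008G149200, 7.36), probable polyol transporter 6 (Potri.007G027900, 7.35), EXO70A1 of the exocyst (Potri.001G234600, 7.19), CEN-like protein 1 of the TERMINAL FLOWER 1 family (Potri.015G141300, 7.19), MYB108 (Potri.010G149900, 6.98) and phosphoenolpyruvate carboxylase kinase 2 (Potri.013G046100, 6.96). The adjusted p of these 8 genes ran from 2.6e-08 to 1.6e-05 by limma.

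Other genes gained most in level. A metallothionein-like protein type 3 (Potri.011G118900, a small metal-binding protein) went from 164, 119 and 103 FPKM to 3833, 3849 and 3694 FPKM (log2 change 4.90, SE 0.50, adjusted p = 5.8e-06). A further ACC oxidase (Potri.014G159000) was already strong in watered leaves and rose from 1003, 1111 and 867 FPKM to 4101, 5713 and 4111 FPKM (log2 change 2.21, SE 0.34, adjusted p = 1.5e-04). A polyphenol oxidase (Potri.001G388900), which browns damaged tissue, rose from 73.9, 25.2 and 79.8 FPKM to 1777, 1926 and 1758 FPKM (log2 change 5.07, SE 0.62, adjusted p = 2.4e-05). In each of these 3 genes the lowest drought library exceeded the highest watered library. By contrast the strongest transcript of the watered leaves, a metallothionein-like protein type 2 (Potri.009G030800), fell from 17562, 19397 and 16072 FPKM to 1637, 2347 and 1405 FPKM (log2 change -3.33, SE 0.67, adjusted p = 0.001), a call that ended when all genes of the table were tested (adjusted p = 0.063).

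The largest falls included wall proteins and chloroplast proteins. Proline-rich protein 4 (Potri.009G129900), a wall protein, stood at 467, 277 and 1754 FPKM in the watered and 0.248, 0 and 0.063 FPKM in the drought libraries (log2 change -9.12, SE 0.69, adjusted p = 6.4e-07). Watered library 3 was the highest for this gene and the drought libraries were at or near 0. A chloroplast carbonic anhydrase (Potri.001G348900), which interconverts carbon dioxide and bicarbonate, stood at 2458, 1449 and 2121 FPKM in the watered and 3.01, 2.82 and 2.72 FPKM in the drought libraries (log2 change -8.99, SE 0.23, adjusted p = 7.7e-10). The 3 drought libraries differed little for it and lay far below each watered library. The lipid transfer protein pEARLI1-like 1 (Potri.006G065500) and the germin-like auxin-binding protein ABP20 (Potri.006G142600) stood at 675, 276 and 597 FPKM and 453, 117 and 366 FPKM in watered leaves and were listed at 0 in all 3 drought libraries (limma adjusted p = 2.5e-08 and 2.6e-07). Both, like proline-rich protein 4, were members through their watered libraries alone, so they had to fall. Every member named in this report with less than 1 FPKM in all 3 libraries of 1 OE group likewise had to differ. Pectinesterase 35 (Potri.014G149700), which trims wall pectin, changed by -7.73, xyloglucan endotransglucosylase Potri.007G008500, which loosens and rejoins wall glycans, by -7.35, and expansin-A8 (Potri.013G154700), which lets walls extend, by -7.07 (limma adjusted p = 1.0e-07, 4.7e-08 and 9.0e-08).

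**Figure D2:**
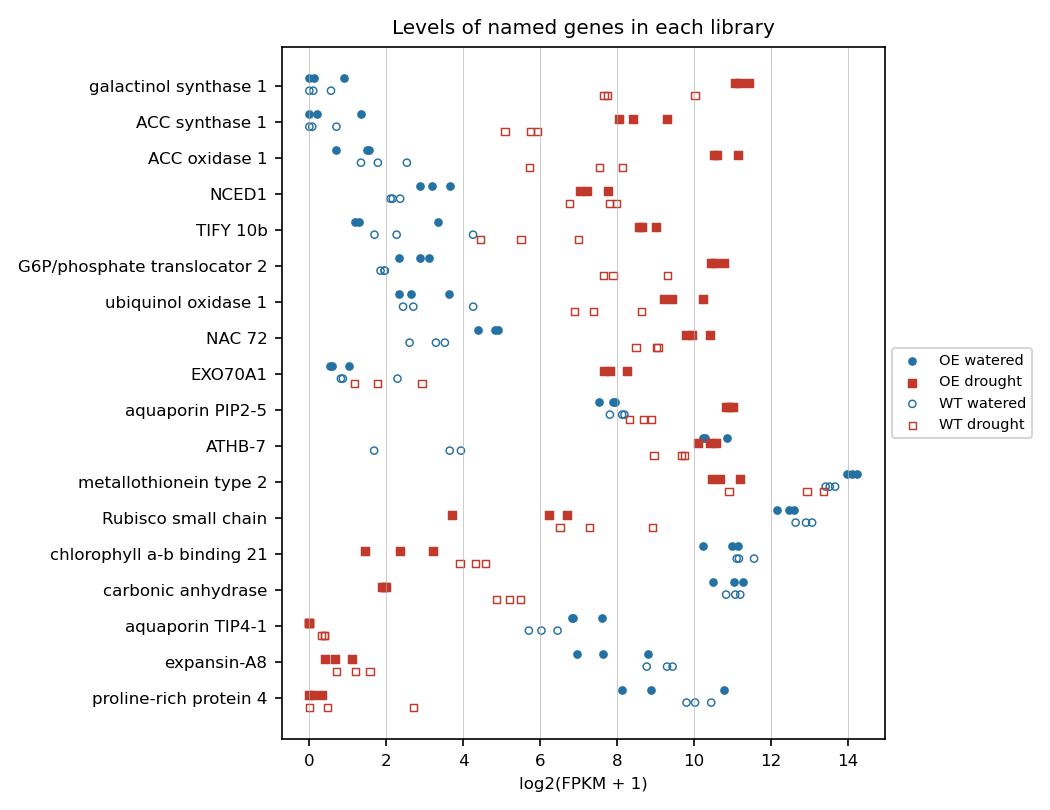
Level of 18 named genes, as log2(FPKM + 1), in each OE library (filled) and each WT library (open), watered in blue and drought in red. The upper 10 genes rose in OE leaves and the lower 7 fell, while ATHB-7 overlapped between OE watered and OE drought leaves and was low in WT watered leaves.

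Transcripts for photosynthesis fell almost as a whole. Of the photosystem and antenna list, 1 of 81 members rose and 71 fell (median -4.73), and in 69 of those that fell drought library 5 was the lowest of the 6. These proteins capture light and carry out its electron transport. The list held 11.6%, 8.39% and 9.78% of all FPKM in the watered libraries and 0.549%, 0.163% and 0.699% in the drought libraries. Chlorophyll a-b binding protein 21 (Potri.011G079500), of the antenna, stood at 2263, 1205 and 2018 FPKM in the watered and 4.09, 1.71 and 8.32 FPKM in the drought libraries (log2 change -8.45, SE 0.39, adjusted p = 2.9e-08). Plastocyanin B (Potri.002G016000), the electron carrier to photosystem I, stood at 2280.5, 1588 and 1978 FPKM in the watered and 12.6, 0.798 and 14.7 FPKM in the drought libraries (log2 change -8.05, SE 0.62, adjusted p = 6.9e-07). In both genes drought library 5 was the lowest and the groups were far apart. The risen member was ferredoxin-3 (Potri.004G202500, 2.55), an electron carrier whose Arabidopsis namesake is the root type.

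Carbon fixation followed the same course. Of the Calvin cycle enzymes, 2 of 34 members rose and 31 fell (median -3.73), and of the photorespiration enzymes, which recycle the product of Rubisco's reaction with oxygen, 7 of 36 members rose and 25 fell (median -2.47). Both risen Calvin cycle members were fructose-bisphosphate aldolase 3 genes, Potri.010G117900 (2.11) and Potri.008G125900 (0.95). The Rubisco small chain gene Potri.004G100000 stood at 6172, 4538 and 5703 FPKM in the watered and 74.2, 12.1 and 103 FPKM in the drought libraries (log2 change -6.86, SE 0.72, adjusted p = 7.3e-06), and a further small chain gene (Potri.017G114600) at 6537, 4846 and 6111 FPKM in the watered and 119, 16.7 and 174 FPKM in the drought libraries (log2 change -6.33, SE 0.74, adjusted p = 1.7e-05). How fragments were split between such similar copies is not given, so their separate values are uncertain. A peroxisomal hydroxy-acid oxidase of photorespiration (Potri.001G394400, glycolate oxidase) fell from 680.1, 567 and 442 FPKM to 12, 0.762 and 17.4 FPKM (log2 change -6.21, SE 0.78, adjusted p = 3.1e-05).

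Chlorophyll synthesis and plastid translation fell as well. Of the chlorophyll synthesis list, 2 of 32 members rose and 24 fell (median -1.69), among them the cyclase of protochlorophyllide formation (Potri.016G025000, -5.63) and magnesium chelatase subunit ChlH (Potri.006G051100, -4.77). Both risen members were annotated as glutamyl-tRNA reductase 1, the entry enzyme of the pathway, while the major watered isoform (Potri.002G107800) fell from 169.9, 86.5 and 161 FPKM to 3.9, 2.3 and 3.83 FPKM. The isoform Potri.009G080600 rose from 0.675, 0.983 and 0.984 FPKM to 40.9, 51.9 and 34.7 FPKM (log2 change 4.52, SE 0.45, adjusted p = 4.7e-06). Of the plastid ribosomal proteins, 1 of 118 members rose and 72 fell (median -1.05). Cytosolic ribosomal proteins changed less, since 25 of 294 members rose and 43 fell (median -0.05). Their share of the summed FPKM was 3.55% to 4.07% in watered and 3.98% to 4.28% in drought libraries, ranges that overlapped. Leaving out 1 library gave 22 (without OE watered library 3) to 71 fallen members (without WT drought library 6), with 24 without OE drought library 4. The risen members numbered 15 without OE watered library 1 and 16 without OE watered library 2. Scaling by the median of ratios gave 34 risen and 24 fallen members.

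Breakdown of chlorophyll was mixed. Of the senescence and chlorophyll breakdown list, 19 of 42 members rose and 15 fell (median 0.43). Chlorophyllase-1 (Potri.005G214200), which strips the tail of chlorophyll, rose from 3.65, 1.2 and 7.84 FPKM to 214, 309 and 196 FPKM (log2 change 5.71, SE 0.56, adjusted p = 4.3e-06). Pheophytinase (Potri.003G219700), which does so for pheophytin in senescing leaves, fell from 10.4, 9.14 and 8.65 FPKM to 0.102, 0.0533 and 0.518 FPKM (log2 change -3.10, SE 0.17, adjusted p = 8.5e-08). YLS9 (Potri.006G204300), named in Arabidopsis for its rise in yellowing leaves, rose from 2.41, 2.02 and 4.3 FPKM to 262, 475 and 206 FPKM, while YLS3 (Potri.003G217000) fell from 39.9, 39.2 and 60.5 FPKM to 2.17, 2.62 and 1.88 FPKM. Of the autophagy list, 18 of 52 members rose and 8 fell, led by an ATG8i gene (Potri.010G153400, 2.84), a tag of the autophagosome, and 5 fell without OE drought library 6. Of the proteasome list, 26 of 86 members rose and 7 fell (30.2% and 8.14%, beside 29.3% and 34.2% of all members). Scaling by the median of ratios raised the risen members to 44. The fallen members numbered 2 without OE drought library 5, 3 without OE watered library 3 and 11 without WT drought library 6.

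**Figure D3:**
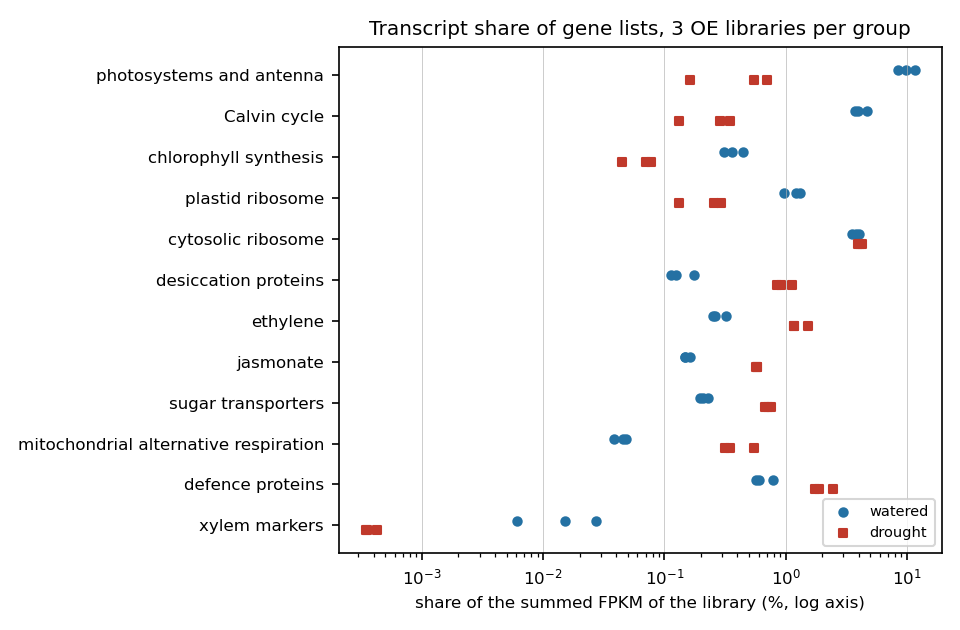
Share of the summed FPKM of each OE library (log axis, in %) held by 12 gene lists, with watered libraries as circles and drought libraries as squares. Photosystem and antenna transcripts fall from at least 8.39% to at most 0.699%, desiccation proteins rise from at most 0.176% to at least 0.858%, and cytosolic ribosomal proteins overlap.

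Lists of protective proteins and sugars had some of the highest medians. Of the desiccation proteins, which are hydrophilic proteins of seeds and drying tissue, 19 of 23 members rose and 2 fell (median 2.78), and their share of the summed FPKM was 0.113% to 0.176% in watered and 0.858% to 1.13% in drought libraries. An 18 kDa seed maturation protein (Potri.T111300) stood at 1.49, 3.7 and 0.653 FPKM in the watered and 259, 399 and 250.4 FPKM in the drought libraries (log2 change 6.79, SE 0.35, adjusted p = 5.0e-08). The desiccation-related protein PCC13-62 (Potri.001G380000) stood at 2.92, 20.7 and 0.692 FPKM in the watered and 239.7, 402 and 199 FPKM in the drought libraries (log2 change 5.68, SE 0.70, adjusted p = 2.5e-05). Low temperature-induced protein lt101.1 (Potri.010G217200) was listed at 0 in all 3 watered libraries and stood at 78.4, 104 and 94 FPKM in drought (limma adjusted p = 4.8e-08). In the first and second of these genes every drought library lay above every watered one, and the third was a member through its drought libraries alone. Both fallen members, a LEA protein D-34 (Potri.010G087000, -1.16) and a cold-regulated plasma membrane protein (Potri.007G032000, -1.11), changed by little more than 1 log2 unit.

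Of the raffinose family and polyol list, 25 of 41 members rose and 8 fell (median 1.52). Its galactinol synthase genes moved in opposite directions. Against the rise of Potri.008G101000, the gene that dominated in watered leaves (Potri.008G189400, also annotated galactinol synthase 1) fell from 2166, 2038 and 1621 FPKM to 82.2, 41.1 and 108 FPKM (log2 change -4.73, SE 0.42, adjusted p = 2.1e-06), and a further copy (Potri.010G042000) fell from 197, 222 and 126 FPKM to 5.39, 0.507 and 5.49 FPKM (log2 change -5.48, SE 0.68, adjusted p = 2.8e-05). In trehalose metabolism, the synthase Potri.006G175500 rose from 1.61, 4.01 and 1.4 FPKM to 159.7, 202 and 147 FPKM, while the phosphatase Potri.007G090900 fell from 13.3, 35.1 and 12.5 FPKM to 0.155, 0.243 and 0.158 FPKM. Trehalose phosphate, made by the first and removed by the second, is a sugar signal of plants. Over trehalose and proline together, 11 of 24 members rose and 7 fell.

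The hormone lists differed in course. Among ABA synthesis and breakdown genes 8 of 22 members rose and 10 fell. NCED1 (Potri.011G112400), the rate-limiting dioxygenase of ABA synthesis, stood at 8.05, 6.35 and 11.7 FPKM in the watered and 148, 215 and 129 FPKM in the drought libraries (log2 change 4.09, SE 0.31, adjusted p = 6.6e-07). The ABA 8'-hydroxylase 1 gene Potri.004G235400, which starts ABA breakdown, stood at 10.4, 14 and 10.1 FPKM in the watered and 239, 170.2 and 249 FPKM in the drought libraries (log2 change 4.13, SE 0.22, adjusted p = 6.6e-08). Zeaxanthin epoxidase (Potri.005G138400), an earlier step shared with the xanthophyll cycle, stood at 32.8, 24.6 and 27.8 FPKM in the watered and 3.2, 2.33 and 4.05 FPKM in the drought libraries (log2 change -2.82, SE 0.25, adjusted p = 2.3e-06). The groups did not overlap in any of these 3 genes. Counted by annotation after their values were seen, 2 of 2 members for 9-cis-epoxycarotenoid dioxygenase rose, 3 of 8 for ABA 8'-hydroxylase rose and 2 fell, and 3 of 3 for zeaxanthin epoxidase fell. In ABA signalling 19 of 50 members rose and 11 fell. The 4 largest falls were receptors of the PYR/PYL family, led by PYL2 (Potri.006G230600, -3.82) and PYL6 (Potri.010G183900, -2.37), and the 4 largest rises were protein phosphatases 2C, which restrain the pathway, such as Potri.009G037300 (from 9.67, 5.48 and 7.72 FPKM to 188, 219.8 and 189 FPKM).

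Ethylene and jasmonate genes rose strongly at a few loci. In the ethylene list 12 of 29 members rose and 5 fell, and its share of the summed FPKM was 0.252% to 0.321% in watered and 1.16% to 1.53% in drought libraries, to which the 2 ACC oxidase genes above contributed. A sensor of ethylene (Potri.002G201500, ethylene response sensor 1) fell from 89.1, 101 and 85.4 FPKM to 49.6, 32.2 and 54.8 FPKM. In the jasmonate list 26 of 54 members rose and 20 fell. Of the TIFY genes, whose JAZ members are repressors that jasmonate induces, 7 of 17 members rose and 8 fell (median -0.14), counted after their values were seen. TIFY 10b (Potri.003G068900) stood at 1.47, 9.14 and 1.28 FPKM in the watered and 400.5, 517 and 382 FPKM in the drought libraries (log2 change 6.80, SE 0.76, adjusted p = 1.2e-05) and TIFY 9 (Potri.003G165000) at 1.51, 3.16 and 2.52 FPKM in the watered and 263, 452 and 227 FPKM in the drought libraries (log2 change 6.50, SE 0.43, adjusted p = 2.5e-07). In both, watered library 2 was the highest watered and drought library 5 the highest drought value, with no overlap. The JAR1 gene Potri.013G144300, whose enzyme joins jasmonate to isoleucine to give the active hormone, fell from 26.4, 22.7 and 23.6 FPKM to 0.452, 0.254 and 0.672 FPKM, and a chloroplast lipoxygenase (Potri.001G015400) of its synthesis from 39.9, 36.8 and 30.9 FPKM to 2.65, 0 and 2.69 FPKM (limma adjusted p = 1.3e-05 and 1.7e-05).

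Auxin, gibberellin and cytokinin lists held more fallen than risen members. Of the auxin list, 21 of 139 members rose and 90 fell (median -1.39), with the induced protein 22B (Potri.013G041300, an Aux/IAA repressor) going from 86.2, 104 and 161 FPKM to 0.453, 0.178 and 0.749 FPKM (log2 change -6.31, SE 0.22, adjusted p = 9.5e-09). The risen members included SAUR72 (Potri.007G067800, 4.17) and GH3.6 (Potri.011G129700, 4.10), whose enzyme conjugates free auxin. Of the gibberellin and cytokinin list, 10 of 59 members rose and 27 fell (median -0.57). Gibberellin-regulated protein 4 (Potri.017G083000) went from 48.1, 43 and 115 FPKM to 0.108, 0.793 and 0 FPKM, and the cytokinin response regulator ARR8 (Potri.016G038000) from 117, 109 and 147 FPKM to 2.77, 1.7 and 4.81 FPKM. The gibberellin receptor GID1B (Potri.014G135900, 2.97) and gibberellin 2-beta-dioxygenase 1 (Potri.001G378400, 2.85), which inactivates the hormone, rose (limma adjusted p = 7.9e-05 and 9.5e-06).

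Sugar transporter genes moved in both directions. Of that list 24 of 62 members rose and 24 fell, while their share of the summed FPKM was 0.198% to 0.231% in watered and 0.681% to 0.766% in drought libraries. The triose phosphate translocator (Potri.011G057800), which exports fixed carbon from the chloroplast, fell from 188, 189 and 152 FPKM to 18.2, 4.27 and 23.4 FPKM (log2 change -3.71, SE 0.51, adjusted p = 5.7e-05). SWEET15 (Potri.001G060900), a sucrose carrier also known as a senescence gene in Arabidopsis, stood at 1.52, 7.9 and 1.58 FPKM in the watered and 285, 212 and 305 FPKM in the drought libraries (log2 change 6.10, SE 0.49, adjusted p = 9.4e-07). Of 2 genes annotated as hexose carrier STP13, Potri.010G089800 rose from 7.13, 13.1 and 6.62 FPKM to 960.2, 1262 and 877 FPKM and Potri.008G151100 fell from 104, 125 and 54.4 FPKM to 6.37, 4.17 and 7.39 FPKM, so that the stronger copy differed between watered and drought leaves. Among starch and sucrose enzymes 37 of 93 members rose and 23 fell, with beta-amylase 1 (Potri.008G174100, 3.92) and beta-amylase 3 (Potri.001G148900, 3.17) of starch breakdown and sucrose synthase 6 (Potri.004G081300, 4.48) higher, and a large subunit of ADP-glucose pyrophosphorylase of starch synthesis (Potri.008G195100, -3.03) lower.

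Genes of mitochondrial respiration that bypasses the proton-pumping complexes were mostly higher. Of that list, 16 of 24 members rose and 4 fell (median 2.06). Ubiquinol oxidase 1 (Potri.003G103900), the alternative oxidase, stood at 4.06, 11.5 and 5.22 FPKM in the watered and 686, 1209 and 590.3 FPKM in the drought libraries (log2 change 6.75, SE 0.55, adjusted p = 1.1e-06), and an internal alternative NAD(P)H dehydrogenase (Potri.011G044600) at 0, 0.955 and 0 FPKM in the watered and 137, 346 and 76.4 FPKM in the drought libraries (log2 change 6.95, SE 0.60, adjusted p = 1.7e-06). Drought library 5 was the highest in both. The groups did not overlap for the oxidase, while the dehydrogenase was below 1 FPKM in each watered library and was a member through its drought libraries alone. In the lipid and peroxisome list, where 21 of 71 members rose and 25 fell, acyl-coenzyme A oxidase 1 of fatty acid breakdown (Potri.003G079200) rose from 9.3, 10.9 and 8.04 FPKM to 164, 214 and 144 FPKM (log2 change 4.06, SE 0.25, adjusted p = 1.7e-07). Antioxidant enzymes were mostly lower, since 19 of 115 members rose and 63 fell (median -0.73), and the largest falls included the chloroplast proteins thioredoxin M (Potri.005G186800, -6.51) and peroxiredoxin Q (Potri.006G137500, -6.31). Next to them, catalase-2 (Potri.005G100400), a peroxisomal enzyme, fell from 308, 233 and 193 FPKM to 16.2, 4.92 and 19.2 FPKM. In the heat shock and chaperone list 74 of 239 members rose and 70 fell, with heat stress factor B-3 (Potri.006G049200, from 1.3, 4.59 and 0.633 FPKM to 280.3, 304 and 232 FPKM) and the plastid chaperone ClpD (Potri.015G110000, 5.39) among the largest rises.

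Nitrogen and storage genes moved in both directions as well. In the nitrogen list 20 of 83 members rose and 37 fell (median -0.54). Chloroplast glutamine synthetase (Potri.008G200100), which takes up the ammonium that photorespiration frees, stood at 466, 333 and 350.4 FPKM in the watered and 28.8, 9.91 and 35 FPKM in the drought libraries (log2 change -4.06, SE 0.41, adjusted p = 5.4e-06). Its cytosolic counterpart Potri.005G093200, which senescing leaves use to load nitrogen for export, stood at 7.71, 24.2 and 16 FPKM in the watered and 106, 168 and 90.5 FPKM in the drought libraries (log2 change 2.93, SE 0.40, adjusted p = 5.5e-05), and asparagine synthetase 1 (Potri.001G278400) went from 0.31, 0.339 and 0.204 FPKM to 9.32, 26.4 and 5.19 FPKM. The plastid enzyme was thus low and the cytosolic enzyme high in each drought library, with no overlap in either. In the storage list 7 of 23 members rose and 12 fell. A glutelin type-A gene (Potri.001G402600), named for a seed storage protein, rose from 12.4, 10.3 and 15.8 FPKM to 1237, 1495 and 1247 FPKM (log2 change 6.60, SE 0.37, adjusted p = 9.1e-08), and bark storage protein A (Potri.T096300), in which poplars store nitrogen, from 1.07, 7.73 and 0.234 FPKM to 324, 456 and 284 FPKM (log2 change 6.95, SE 0.68, adjusted p = 4.3e-06). Another gene annotated bark storage protein A (Potri.013G080300) fell from 55, 12.8 and 64.4 FPKM to 3.57, 0.585 and 2.49 FPKM (log2 change -3.66, SE 1.00, adjusted p = 0.0074).

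**Figure D4:**
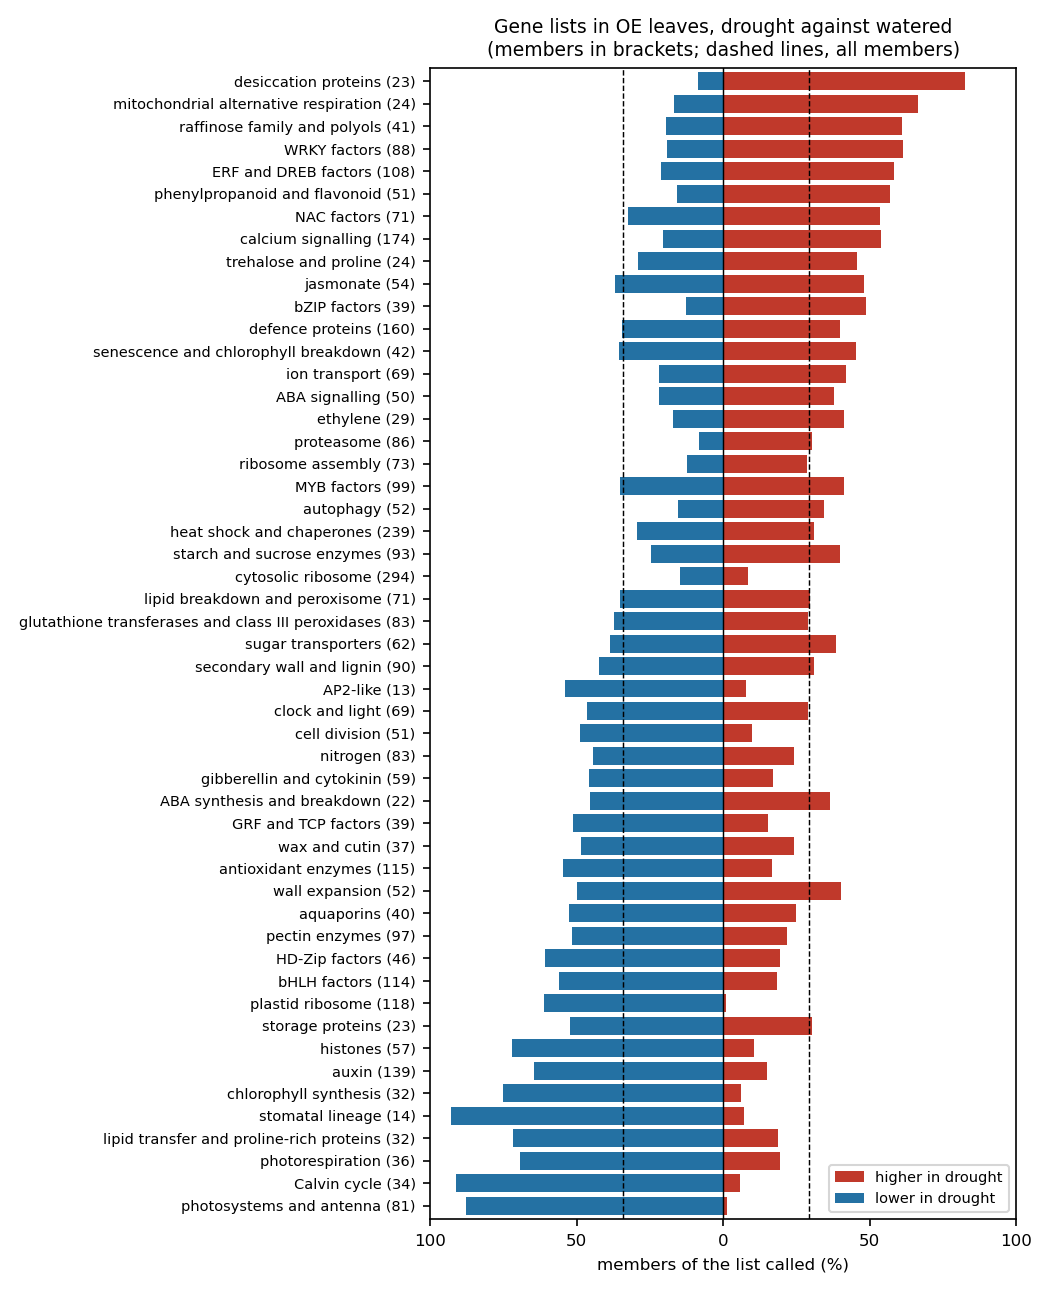
Share of the members of each gene list that rose (red, to the right) or fell (blue, to the left) in OE drought against OE watered leaves, ordered by median change, with the number of members in brackets. Dashed lines mark all members (29.3% higher and 34.2% lower). Desiccation proteins lie at the top and photosystem and antenna proteins at the bottom.

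Gene lists of growth held more fallen than risen members. Of the histone list 6 of 57 members rose and 41 fell (median -1.24), of the cell division list 5 of 51 members rose and 25 fell (median -0.52), and of the growth-regulating (GRF) and TCP factors 6 of 39 members rose and 20 fell (median -0.62). GRF7 (Potri.012G022600) went from 18.6, 12.7 and 13.8 FPKM to 1.11, 0.225 and 1.59 FPKM, and cyclin-D3-1 (Potri.002G123000), which drives entry into division, from 8.27, 6.01 and 13.7 FPKM to 0.68, 0.285 and 0.646 FPKM. A second cyclin-D3-1 gene (Potri.014G023000) rose from 5.38, 3.08 and 8.79 FPKM to 23, 10.4 and 26.9 FPKM (log2 change 1.63, SE 0.35, adjusted p = 0.0016). Pectin enzymes had 21 risen and 50 fallen of 97 members, and lipid transfer and proline-rich proteins 6 and 23 of 32. Wall expansion genes were split, since 21 of 52 members rose and 26 fell, with the expansin-like B1 gene Potri.003G083200 going from 17.3, 37.5 and 3.93 FPKM to 549, 884 and 483 FPKM (log2 change 5.35, SE 0.81, adjusted p = 1.3e-04).

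Secondary wall genes also split. Of that list 28 of 90 members rose and 38 fell. Laccase-4 (Potri.016G112000), a lignin-forming oxidase of xylem, fell from 20.4, 13.2 and 39.4 FPKM to 0, 0 and 0.118 FPKM, while the laccase-15 gene Potri.011G071100 rose from 0, 0.14 and 0 FPKM to 90.7, 155 and 70.9 FPKM. Defining xylem markers (xylem cellulose synthases, laccases 4 and 17, COBRA-like 4) fell in 9 of 9 members, and their share of the summed FPKM was 0.00609% to 0.0276% in watered and 0.000347% to 0.000424% in drought libraries. Of the 30 genes of this list, 21 were below the filter. All 30 together summed to 2.06 to 2.53 FPKM in the drought libraries, so most members were below 1 FPKM in each. Members that passed through the watered libraries alone had to fall, so the count of 9 lends little weight. Phloem markers fell in 16 of 27 and rose in 1, with a share of 0.0717% to 0.0905% in watered and 0.0648% to 0.0982% in drought libraries. Counted by annotation after their values were seen, 11 of 11 members annotated SIEVE ELEMENT OCCLUSION fell, of 21 such genes in the table, with Potri.008G183200 going from 32.5, 22.3 and 52.4 FPKM to 0.384, 0.216 and 0.211 FPKM. That gene passed the filter through its watered libraries alone and had to fall. How many of the 11 passed in this way was not counted. Among the 7 members annotated phloem protein 2-like A9, the smallest limma adjusted p was 0.054 (Potri.T088300). Markers of dividing cells rose in 4 and fell in 14 of 22 members. They were defined to include cyclins and histone H4, and the xylem markers to include cellulose synthases and laccases. Both marker sets thus share genes with the lists of growth and secondary walls above and are no separate measure of cell makeup. The part of cell makeup in the wall, histone and vascular results was not tested.

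At the leaf surface, wax and cutin genes had 9 risen and 18 fallen of 37 members. CER1 (Potri.005G153600), which makes wax alkanes, went from 42.8, 62 and 81.4 FPKM to 0.438, 0.688 and 0.892 FPKM, and 3-ketoacyl-CoA synthase 10 (Potri.006G218000), which lengthens cuticle fatty acids, from 49.1, 70.2 and 137 FPKM to 0.617, 0.516 and 0.46 FPKM (limma adjusted p = 2.2e-08 and 1.6e-07). An alcohol-forming fatty acyl-CoA reductase (Potri.009G145000) rose from 1.38, 3.49 and 0.261 FPKM to 80.7, 58.2 and 81.3 FPKM (log2 change 4.95, SE 0.44, adjusted p = 2.0e-06). Epidermis and trichome markers fell in 11 of 15 members and rose in 1. Their share of the summed FPKM was 0.0602% to 0.11% in watered and 0.0341% to 0.043% in drought libraries. These markers were defined to include CER1 and 3-ketoacyl-CoA synthase 10, so they partly repeat the wax genes and are no separate measure. The part of epidermal cells in the wax result was not tested.

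Genes of water and ion transport moved in both directions. Of the aquaporins, 10 of 40 members rose and 21 fell (median -0.87), but their share of the summed FPKM was 0.58% to 0.675% in watered and 0.913% to 1.08% in drought libraries. The plasma membrane aquaporins PIP1-2 (Potri.008G065600) and PIP2-5 (Potri.010G222700) rose, from 375, 546 and 344 FPKM to 2216, 2268 and 2359 FPKM and from 182, 246 and 235 FPKM to 1828, 2048 and 1919 FPKM (log2 change 2.46 and 3.13, SE 0.27 and 0.23). PIP2-4 (Potri.008G039600), which was the strongest of these 3 in watered leaves, fell from 861, 920.4 and 769 FPKM to 56, 28.1 and 64.2 FPKM (log2 change -4.16, SE 0.32, adjusted p = 7.7e-07), and in none of the 3 genes did the groups overlap. The vacuolar aquaporin TIP4-1 (Potri.006G239700) stood at 115, 196 and 113 FPKM in watered leaves and was listed at 0 in all 3 drought libraries. Among ion transport genes 29 of 69 members rose and 15 fell, with potassium transporter 5 (Potri.014G132500, 5.83), of high-affinity uptake, higher and the phloem channel AKT2/3 (Potri.003G018800, -3.17) lower. Guard cell markers numbered 5 members, of which KAT3 (Potri.018G035500, from 0.799, 1.87 and 1.91 FPKM to 13, 18.7 and 9.95 FPKM) and the vacuolar channel TPC1 (Potri.013G131100, 1.30) rose and one SRK2E gene (Potri.009G106900, -0.56), the kinase that signals closure, fell. That last call ended without OE watered library 2 or OE drought library 5 (adjusted p = 0.082 and 0.081).

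Calcium signalling and defence genes held more risen than fallen members. Of the calcium list 94 of 174 members rose and 36 fell (median 0.64), with the plasma membrane calcium pump ACA12 (Potri.005G215600) at 0.58, 2.53 and 0.634 FPKM in the watered and 108, 169 and 86.3 FPKM in the drought libraries (log2 change 5.81, SE 0.36, adjusted p = 1.8e-07). Of the defence proteins 64 of 160 members rose and 55 fell, and their share of the summed FPKM was 0.575% to 0.788% in watered and 1.76% to 2.45% in drought libraries. A vacuolar endo-1,3-beta-glucosidase (Potri.001G255100), which degrades callose and fungal walls, stood at 23.1, 95.2 and 50.9 FPKM in the watered and 1906, 3238 and 1501 FPKM in the drought libraries (log2 change 5.41, SE 0.68, adjusted p = 3.0e-05). A thaumatin-like protein (Potri.001G107800) stood at 7.19, 32.1 and 17.5 FPKM in the watered and 1022, 1498 and 964 FPKM in the drought libraries (log2 change 6.06, SE 0.84, adjusted p = 6.3e-05). In both, watered library 2 was the highest watered and drought library 5 the highest drought value. Of the phenylpropanoid and flavonoid list, 29 of 51 members rose and 8 fell (median 1.03), and chalcone synthase 1 (Potri.001G051600), the entry enzyme of flavonoids, went from 37.2, 41.9 and 61.4 FPKM to 697, 1017 and 593 FPKM, while flavonoid 3'-monooxygenase (Potri.003G066800) fell from 105, 39.2 and 83.8 FPKM to 13.8, 0.565 and 14.2 FPKM.

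Transcription factor families moved apart. Of the WRKY factors 54 of 88 members rose and 17 fell (median 1.28), of the ERF and DREB factors 63 of 108 members rose and 23 fell (median 1.10), and of the NAC factors 38 of 71 members rose and 23 fell (median 0.77). Of the bHLH factors 21 of 114 members rose and 64 fell (median -0.94), and of the HD-Zip factors 9 of 46 members rose and 28 fell (median -0.93). NAC72 (Potri.011G123300), known in Arabidopsis as the dehydration-induced factor RD26, stood at 27.5, 29.2 and 19.8 FPKM in the watered and 992, 1364 and 878 FPKM in the drought libraries (log2 change 5.34, SE 0.27, adjusted p = 4.8e-08), and WRKY75 (Potri.015G099200), a senescence regulator there, at 1.88, 7.77 and 1.2 FPKM in the watered and 309, 197 and 314 FPKM in the drought libraries (log2 change 6.14, SE 0.42, adjusted p = 3.5e-07). The NAC43 genes Potri.011G153300 and Potri.014G104800, regulators of secondary walls, changed by -3.49 and -3.10, and ERF110 (Potri.005G195000) by 6.45. The remaining families were the MYB factors, of which 41 of 99 members rose and 35 fell, and the bZIP factors, of which 19 of 39 members rose and 5 fell. Genes annotated MYB39 moved in opposite directions, Potri.011G041600 from 2.62, 7.6 and 4.62 FPKM to 440.4, 441 and 440.0 FPKM and Potri.017G086300 from 11.1, 11.3 and 21 FPKM to 0.321, 0.287 and 0.233 FPKM. Of the clock and light genes 20 of 69 members rose and 32 fell, with the morning factor LHY (Potri.014G106800) at 408, 447 and 348 FPKM in the watered and 26, 23.6 and 30.1 FPKM in the drought libraries (log2 change -3.87, SE 0.93, adjusted p = 0.0034). The hour of sampling is not given, and its part in the clock result was not tested.

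The gene ontology terms in the authors' annotation were ranked by the median change of their members. Of 419 biological process terms with 20 to 300 members, the lowest medians among terms that shared at most 60% of members were those of light harvesting in photosystem I (0 of 22 higher, 21 lower, median -5.05), photosynthesis (14 of 107 higher, 76 lower, median -2.85), the reductive pentose-phosphate cycle (0 of 34 higher, 27 lower, median -2.81) and photosystem II repair (1 of 21 higher, 17 lower, median -2.19). Wall, vascular and auxin terms were among the next, with secondary cell wall biogenesis (4 of 50 higher, 35 lower, median -1.97), phloem development (1 of 21 higher, 18 lower, median -1.94), xylan synthesis (1 of 24 higher, 18 lower, median -1.84) and auxin polar transport (3 of 39 higher, 25 lower, median -1.54). The highest medians were those of chitin catabolism (20 of 33 higher, 6 lower, median 1.58), response to chitin (91 of 140 higher, 20 lower, median 1.43), response to other organism (15 of 27 higher, 5 lower, median 1.15), negative regulation of leaf senescence (11 of 21 higher, 6 lower, median 0.98), cell surface receptor signalling (28 of 50 higher, 5 lower, median 0.97), systemic acquired resistance through salicylic acid (15 of 26 higher, 4 lower, median 0.92), defence to fungus by incompatible interaction (18 of 31 higher, 8 lower, median 0.89) and cellular response to water deprivation (20 of 37 higher, 11 lower, median 0.83). The wider term response to water deprivation stood nearer to all members (109 of 281 higher, 81 lower, median 0.21). The response to chitin term held 140 members, the most of the 12 terms with the highest medians. Among component terms, ranked by the same rule but chosen after their values were seen, the exocyst, a tether of secretory vesicles, stood highest (27 of 35 higher, 0 lower, median 1.10).

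AP2-like factors fell or passed in neither direction, apart from 1 gene. Of that list 1 of 13 members rose and 7 fell (median -0.49), and the risen member was no longer called in most alternatives. The 6 members annotated APETALA 2 itself, the family that miR172 represses, are taken in turn. The gene Potri.007G046200 stood at 19.4, 32 and 20.6 FPKM in the watered and 14.8, 11.1 and 16.3 FPKM in the drought libraries (log2 change -0.71, SE 0.22, adjusted p = 0.013), and Potri.005G140700 at 12, 16.2 and 11.4 FPKM in the watered and 9.24, 8.19 and 9.67 FPKM in the drought libraries (log2 change -0.49, SE 0.17, adjusted p = 0.027). Their groups did not overlap, though the first call ended without OE watered library 2 (adjusted p = 0.055) or OE drought library 5 (0.053), and the second in 4 of 20 alternatives with adjusted p of up to 0.11. The gene Potri.008G045300 stood at 24.7, 32.5 and 25.8 FPKM in the watered and 28.8, 12.2 and 31.1 FPKM in the drought libraries, Potri.006G132400 at 18.3, 21.1 and 16.2 FPKM in the watered and 19.3, 11.4 and 22.5 FPKM in the drought libraries, and Potri.016G084500 at 15.7, 13.5 and 14.1 FPKM in the watered and 14.1, 12.2 and 14 FPKM in the drought libraries. Their groups overlapped, with changes of -0.29, -0.10 and -0.09, and they passed in neither direction by limma (adjusted p = 0.4, 0.71 and 0.75). Last, Potri.010G216200 stood at 3.98, 8.02 and 4.88 FPKM in the watered and 10.3, 6.33 and 13.3 FPKM in the drought libraries, with overlapping groups, and its call (log2 change 0.72, SE 0.29, adjusted p = 0.046) ended in 13 of 20 alternatives, with adjusted p of up to 0.18.

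Of the stomatal lineage list 14 of 42 genes passed the filter on low values. Of these 1 of 14 members rose and 13 fell (median -1.90). Members that passed through the watered libraries alone had to fall. How many of the 13 passed in this way was not counted, so the count lends little weight. The trihelix factor GTL1, which in Arabidopsis represses the stomatal protease gene SDD1, was given by Potri.001G454500 at 22, 31.4 and 28.6 FPKM in the watered and 6.44, 2.67 and 7.33 FPKM in the drought libraries (log2 change -2.20, SE 0.27, adjusted p = 2.7e-05) and by Potri.011G147400 at 11.3, 16.2 and 16.1 FPKM in the watered and 5.36, 1.54 and 6.07 FPKM in the drought libraries (log2 change -1.66, SE 0.34, adjusted p = 0.0011). SBT1.2 (Potri.002G256300), the annotation of SDD1, stood at 1.28, 2.43 and 2.44 FPKM in the watered and 0.289, 0.182 and 0.324 FPKM in the drought libraries (log2 change -1.25, SE 0.26, adjusted p = 0.0012). In both GTL1 genes the lowest watered library exceeded the highest drought library, and the SBT1.2 gene was a member through its watered libraries alone. FAMA (Potri.001G314400), which completes guard cell formation, went from 8.82, 20.4 and 13 FPKM to 2.12, 1.65 and 1.72 FPKM, the promoting peptide EPF-like 9 (Potri.002G249901) from 22.6, 8.52 and 22.3 FPKM to 0, 0 and 0.091 FPKM, and ICE1 (Potri.012G106000), a dimer partner of FAMA, rose (log2 change 0.70, SE 0.14, adjusted p = 8.0e-04).

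WT leaves served to ask where the OE response differed. Among members, 1153 had a response above and 2598 one below that of WT (limma interaction, adjusted p under 0.05), beside 4.58% above and 10.5% below among all genes tested. Leaving out 1 of the 12 libraries gave 613 to 1916 above and 805 to 4666 below, and each library except OE watered 3 and OE drought 6 moved a count by over 1.5 times. The split also depended on the scaling. By the median of ratios 66.3% of the called differences were above WT, against 30.7% as deposited, and the median difference went from -0.30 to 0.04. Members that rose in OE leaves had a median change of 1.24 there and 0.93 in WT leaves, and those that fell -1.45 and -0.78. Since the OE values chose these members, the larger OE medians are a description only.

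**Figure D5:**
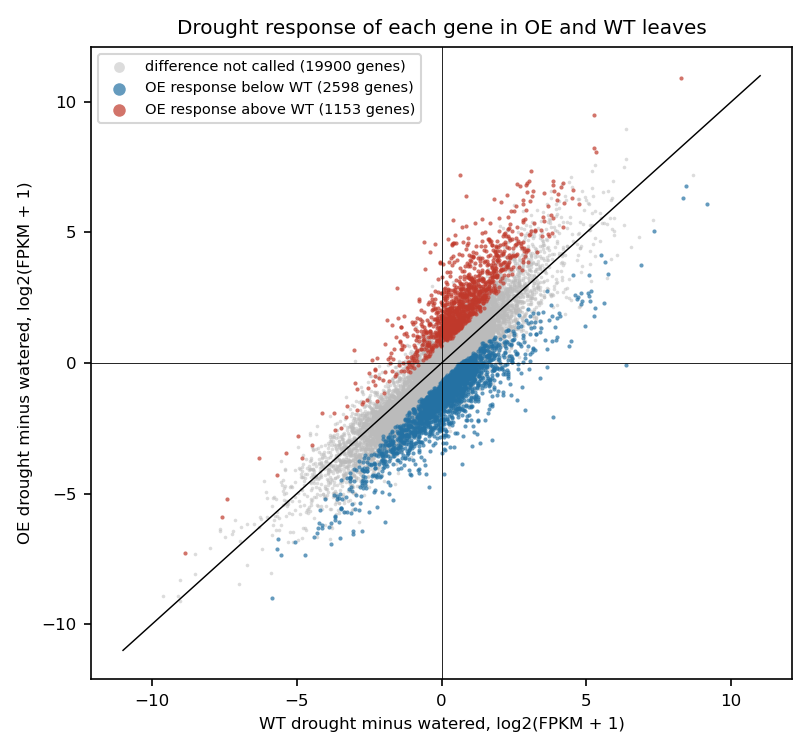
Drought change of each of the 23651 members in WT leaves (horizontal axis) and OE leaves (vertical axis), both as differences of log2(FPKM + 1), coloured where the interaction passed. Most genes lie near the line of equal response. As deposited, the interaction passed for 1153 genes above the line and 2598 below it, and EXO70A1 and ATHB-7 lie farthest from it.

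The largest positive difference was that of EXO70A1 (Potri.001G234600), an exocyst subunit, which stood at 0.461, 1.05 and 0.504 FPKM in the watered and 224, 307 and 201 FPKM in the drought libraries and at 0.765, 0.829 and 3.89 FPKM in WT watered and 1.27, 2.42 and 6.6 FPKM in WT drought libraries (difference 6.55, SE 0.64, adjusted p = 4.3e-04). WT groups overlapped and OE groups did not. Thaumatin-like protein 1 (Potri.005G112700, 5.25), the zinc finger genes ZAT11 (Potri.001G235800, 5.08) and ZAT12 (Potri.009G027700, 4.41), the calcium sensor CML37 (Potri.002G001400, 4.55) and calcium ATPase 13 (Potri.008G159100, 4.49) followed among described genes, each with a WT change between -0.62 and 0.70. The largest negative difference was that of ATHB-7 (Potri.014G103000), an HD-Zip factor that drought and ABA induce in Arabidopsis. It stood at 1242, 1854 and 1210.2 FPKM in the watered and 1370.2, 1109 and 1518 FPKM in the drought libraries, which overlapped, but at 14.4, 2.21 and 11.5 FPKM in WT watered and 856, 819.8 and 498 FPKM in WT drought libraries (difference -6.46, SE 0.69, adjusted p = 6.5e-04). Each OE watered library thus lay above every WT drought library. YLS3 (Potri.003G217000, -4.55), abscisic stress-ripening protein 3 (Potri.005G193600, -4.32) and DnaJ 11 (Potri.004G172300, -4.72) fell in OE leaves, with WT changes of 0.69, -0.43 and 1.75.

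By list, cytosolic ribosomal proteins had 0 responses above and 71 below WT of 294 members, with a median change of -0.05 in OE and 0.65 in WT leaves, but only 4 below by the median of ratios. Photosystem and antenna proteins had 24 below and 0 above (medians -4.73 and -2.84), and 11 below by the median of ratios. Auxin genes had 4 above and 33 below of 139, and antioxidant enzymes 1 and 29 of 115. By the median of ratios these were 7 and 15, and 4 and 10. Desiccation proteins had 1 above and 5 below of 23 (medians 2.78 in OE and 3.69 in WT leaves). Genes of alternative respiration had 7 above and 0 below of 24. Jasmonate genes had 14 above and 5 below of 54, calcium signalling genes 22 and 11 of 174, and phenylpropanoid and flavonoid genes 12 and 2 of 51. In these 3 lists the median of ratios gave 15, 29 and 17 above and 3, 4 and 1 below. That scaling raised the share above WT among all called differences from 30.7% to 66.3%. It could thus hardly have reversed these majorities and lends them no weight.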

How the data were processed

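Leaf RNA of 12 libraries (4 groups of 3) was sequenced as paired reads on an Illumina HiSeq from NEBNext Ultra libraries, per the series' design text. The authors deposited FPKM per gene and library, with positions, UniProt descriptions and gene ontology terms. HISAT2 2.1.0 and Bowtie2 2.2.3 are named, without roles, per the submitters' processing notes. A shorter deposited table held 16749 of the genes, 16748 with identical values, and was only compared. Library depths were computed from the FPKM steps, which gave whole fragments within 0.02 for 100% of genes.

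Genes with at least 1 FPKM in 3 of 12 libraries (25373) were fitted as log2(FPKM + 1) with limma 3.58.1 (trend, 4 group means, 8 residual degrees of freedom) in R 4.3.3. The threshold was a Benjamini-Hochberg adjusted p under 0.05 over all of them. FPKM is no count, so no count test was the main one. The code was tested on simulated data. Of the members, 18869 had a description and 15444 a biological process term. 58 lists were made by patterns in the descriptions, and named genes were the largest changes by fold, by level, by list and by difference from WT, plus AP2, GTL1 and SDD1 homologues. Members and lists were chosen with earlier results of these data known. Alternatives were the pseudocount, filters, scaling, voom, the replicate block and leaving out each library.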

Additional observations from a re-analysis of the deposited data

Results flagged for a closer look

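Values below are the OE drought response minus the WT drought response on the log2(FPKM + 1) scale, for genes named in the report whose difference passed by limma with a Benjamini-Hochberg adjusted p under 0.05. Among all members, the difference passed above zero in 1153 and below zero in 2598. Of the 52 genes named here, all kept their sign under each of 20 alternatives, and between 38 and 52 of them passed the threshold again. They were chosen because they passed in these same data, so a kept sign lends little further weight.

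Genes that rose in OE leaves with a response above that of WT leaves included, from secretion, defence and calcium signalling, 6.55 for EXO70A1, 5.25 for thaumatin-like protein 1, 5.08 for ZAT11, 4.41 for ZAT12, 4.55 for CML37, 4.49 for calcium ATPase 13, 3.32 for calcium ATPase 12, 4.49 for YLS9 and 3.09 for polyphenol oxidase. Hormone genes among them were ACC oxidase 1 (4.25), ACC synthase 1 (2.74), TIFY 10b (3.89) and TIFY 9 (2.98). Metabolic genes were polyol transporter 6 (4.26), glutamyl-tRNA reductase 1 Potri.009G080600 (4.15), internal NAD(P)H dehydrogenase (3.92), phosphoenolpyruvate carboxylase kinase 2 (3.11), basic 7S globulin (2.98), glutelin (2.71), chalcone synthase 1 (2.67), galactinol synthase 1 Potri.008G101000 (2.64), STP13 Potri.010G089800 (2.63), acyl-coenzyme A oxidase 1 (2.11) and beta-amylase 3 (1.89). Regulators and others were ERF110 (4.19), ClpD (2.57), aquaporin PIP2-5 (2.55), heat stress factor B-3 (2.08) and MYB39 Potri.011G041600 (1.79). ICE1 (0.92) rose in OE leaves and had a WT change of -0.22. The AP2 gene Potri.005G140700 (1.11) fell less in OE than in WT leaves. Over the AP2-like list, 1 of 13 members had a response above and 4 had one below WT, and 2 and 2 by the median of ratios.

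Genes that fell in OE leaves with a response below that of WT leaves were carbonic anhydrase (-3.14), STP13 Potri.008G151100 (-3.11), trehalose-phosphate phosphatase 4 (-2.60), 3-ketoacyl-CoA synthase 10 (-2.33), thioredoxin M (-2.21), auxin-induced protein 22B (-2.03), galactinol synthase 1 Potri.008G189400 (-1.93), the xyloglucan endotransglucosylase (-1.81), CER1 (-1.75), aquaporin TIP4-1 (-1.40), cyclin-D3-1 Potri.002G123000 (-1.19), MYB39 Potri.017G086300 (-1.10) and LEA protein D-34 (-0.87). The TIP4-1 value depends on the added 1 FPKM, since the gene was listed at 0 in all OE drought libraries. YLS3 (-4.55) and abscisic stress-ripening protein 3 (-4.32) fell in OE leaves, against WT changes of 0.69 and -0.43. DnaJ 11 (-4.72) and SRK2E (-1.89) fell in OE leaves and rose in WT leaves (WT changes 1.75 and 1.33). ATHB-7 (-6.46) passed in neither direction in OE leaves (-0.09) and rose in WT leaves (6.37). Rises that were smaller in OE leaves were those of SWEET15 (-3.07), the 18 kDa seed maturation protein (-1.64) and ABA 8'-hydroxylase 1 (-1.37). WT drought library 6 stood apart from the other WT drought libraries (chi-square of 71.4 and 71.7 per gene, against 25.5 between those).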

How the results depend on the processing

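Risen members numbered 6155 to 7854 and fallen members 7690 to 8401 over the 8 alternatives other than leaving out 1 library or raising the fold threshold, and both stayed within 1.5 times of the reported counts. Asking for a change of at least 1 log2 unit left 4287 risen members. Leaving out 1 library gave 5886 to 7273 risen and 7090 to 8513 fallen members. The difference from WT moved more. Responses above WT numbered 2016 by the median of ratios and 739 by limma-voom on recovered fragments, and responses below WT 1024 by the median of ratios. Leaving out 1 library gave 613 (without OE drought 4) to 1916 (without WT drought 6) above and 805 (without WT watered 2) to 4666 (without WT drought 6) below. The cause of these shifts was not tested.

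Of 2436 counts by list and alternative, 93 moved by over 1.5 times, mostly small counts or those at a change of at least 1 log2 unit. Ribosome assembly factors had 21 risen members of 73, and 12 without OE drought library 4. No value changed sign among named genes, and 107 of 9057 values lost their call. Most named genes were chosen for large changes in these same data, so kept signs lend little weight. Called members that kept the call in every alternative numbered 12397, and 2622 lost it in at least 1. Averaging OE drought libraries 4 and 6, chosen after seeing the data, gave 6155 risen and 7801 fallen members. At these depths genes near 1 FPKM rest on few fragments, and the added 1 FPKM sets much of their fitted change.

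With the replicate number as a block, the difference passed for 746 responses above and 1372 below WT. Watered and drought leaves share no number, so no block could be fitted to the drought response itself. Deviations of same-numbered WT and OE libraries correlated at 0.015, -0.50, -0.017, -0.054, 0.22 and 0.13 for numbers 1 to 6. The signs were mixed and no test was made of these values. Deviations from the means of so few libraries per group cannot decide whether the numbers pair the samples.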
